A study of Drosophila melanogaster with 8 samples.

Results

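Leg imaginal discs were compared with salivary glands of Drosophila melanogaster by FAIRE-seq, which recovers DNA of low nucleosome occupancy after crosslinking and phenol extraction. The comparison rests on 2 wild type (WT) leg disc libraries and 2 WT salivary gland libraries of the 8 libraries in the series, and on all 13008 regions of the authors' deposited table of leg against gland. Its members were taken by group label, not by any measured value. The labels give all libraries as female wandering larvae at -6 h relative to puparium formation (APF), raised at 25 °C, with at least 40 dissected tissues per library; WT leg, gland and wing have the genotype +/+; +/+; +/+. WT wing discs, 2 libraries with the same labels, served to show where leg differs from wing. The other 2 libraries are wing discs in a yw/yw background that carry UAS-EcR-RNAi[104] and UAS-GFP, with Vg-GAL4 (a driver active in wing disc cells), UAS-Flp and the flip-out driver Tub>>CD2>>GAL4; they enter the authors' mean count and are cited at 2 regions. The thoracic segment of the leg discs is not given, and whether replicate libraries stem from separate crosses is not stated, so an adjusted p-value reflects the scatter of these libraries alone and that scatter may be technical. The deposited gland peaks are named with EcRmimic and a fragment size tag, those of leg and wing with OR, so whether the glands are of the same stock as the discs is unclear.

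Leg discs are diploid epithelial sacs, patterned along their proximal-distal axis by transcription factors such as Homothorax, Dachshund and Distal-less, that evert into adult legs at metamorphosis. Hox genes give a disc its segment, and Sp1, buttonhead, disco and the T-box genes H15 and midline belong to the ventral appendage program, which wing discs lack. The salivary gland is a fully differentiated tissue of large polytene cells that makes glue proteins under Fork head, Sage and CrebA, and no longer divides. Open regions away from gene ends often act as enhancers, and those at gene ends include promoters.

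The tables hold folds and their standard errors (SE) but no value per library, so the depth of each library is unknown and the level in each sample cannot be given. An approximate level of each group, in normalized counts, was worked out from the authors' mean normalized count and their folds. Over all regions 22.6% were leg-higher and 13.3% gland-higher, the shares against which the marker counts stand. All 6 leg disc marker genes had regions, and of their 40 regions 30 were leg-higher and 0 gland-higher by the authors' deposited table. Wing exceeded gland at 7 of 9 regions of Antp, 4 of 9 of Dll and 2 of 4 of dac. It did so at 1 of 9 of Sp1, 1 of 6 of btd and 1 of 3 of disco, so not all of these genes set leg apart from wing. Of 11 gland marker genes 5 had regions, 10 of 19 of them higher in gland and 2 higher in leg, while sage, Sgs5, Sgs7, Sgs8, ng1 and PH4alphaSG1 had none. Among markers of cells that can adhere to a disc, 26 of 39 regions at 3 of 4 tracheal genes, 4 of 11 at 4 of 5 myoblast genes (3 gland-higher) and 2 of 3 at 2 of 6 haemocyte genes were leg-higher by the authors' deposited table; Him, btl, Hml, NimC1, eater and Pxn had no region. Of 8 fat body genes, Lsp1gamma and Adh had regions, 4 of 8 higher in leg and 1 higher in gland. The part of such cells in the folds was not tested, and fewer cells of a type and less open chromatin per cell cannot be told apart. DNA copy number was not measured either, and in the polytene gland, where some regions are known to be replicated less than the rest, fewer copies and less open chromatin cannot be told apart.

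A region is said to be called, or higher in a tissue, when its adjusted p is under 0.05 and its log2 fold reaches 1 in either direction. The authors' deposited table called 4659 of 13008 regions (35.8%). Leg was higher at 2934 of these (22.6%), nearest to 1359 genes, and gland at 1725 (13.3%), nearest to 1290 genes. Log2 folds ran from -4.55 to 5.93, with a median SE of 0.22, and the called sets had like median sizes, 1.5 for leg and 1.47 for gland in the authors' deposited table. Large folds lay mostly on the leg side, where 620 regions reached 2 and 122 reached 3, against 280 and 11 on the gland side. The median of all regions was 0.17. Leg held 62.97% of the calls, a share that depends on the scaling: it was 51.1% once the overall median was set to 0 and 81.8% once the median of gene-end regions was set to 0.

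**Figure D1:**
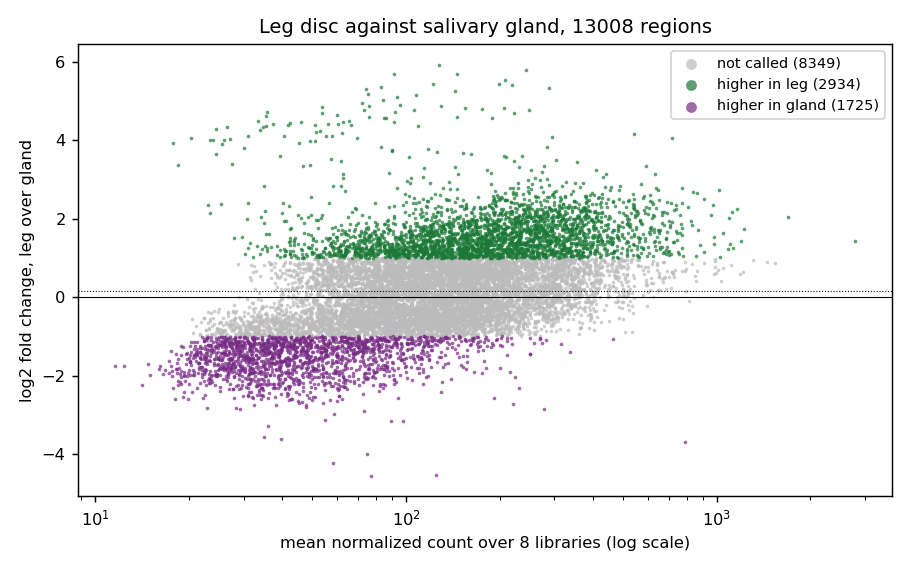
Log2 fold change of leg over gland (vertical axis) against the mean normalized count over 8 libraries (horizontal, log scale) for 13008 regions; green points are 2934 regions higher in leg, purple points 1725 higher in gland, and the dotted line is the median of all regions, 0.17. Gland-higher regions sit at low mean counts and the largest folds are on the leg side.

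The regions of the 2 sides differed in width and position. Leg-higher regions had a median width of 650 bp and gland-higher regions of 268 bp, against 514 bp for regions not called. Wing against gland gave 648 and 271 bp. The authors mark which tissue's peaks a region came from, and 1709 of 1725 gland-higher regions were gland-marked. Regions marked in gland and not leg had a median width of 320.5 bp, those marked in leg and not gland 594 bp. The part of peak calling in these widths was not tested. A body of a gene held the centre of 52.4% of leg-higher regions, 85.9% of gland-higher regions and 72.8% of those not called. Approximate median levels were 255 in leg and 84.6 in gland for leg-higher regions, and 27.8 in leg and 82.5 in gland for gland-higher regions. Levels are counts per region and so depend on the widths, and both sets were chosen by the leg over gland fold. Mean counts average 6 disc libraries and 2 gland libraries, so a region open in gland alone has a low mean by construction.

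Distance to a gene ordered the leg side. Within 500 bp of a gene end, 10.95% of 4683 regions were higher in leg and 11.8% higher in gland, with a median log2 fold of -0.37 in the authors' deposited table. At 500 to 2000 bp the shares were 18.0% and 18.7%, at 5000 to 10000 bp 34.8% and 12.2%, and at 20000 to 50000 bp 40.4% and 8.47%. The leg-higher share thus rose with distance, while the gland-higher share was highest at 500 to 2000 bp. Beyond 50000 bp, 101 of 130 regions were higher in leg, with a median log2 fold of 3.99. Runs on the X near ATbp (40 regions), on 3R near Myo81F and spok (17) and on the Y (14) had median distances of 269, 393 and 253 kb. DNA copy number was not measured in these runs. The wing-higher share over gland rose likewise, from 9.59% within 500 bp to 45.3% at 20000 to 50000 bp and 77.7% beyond.

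Wing against gland, which shares both gland libraries with leg against gland, gave 2751 wing-higher and 1647 gland-higher regions (21.1% and 12.7%). Because the gland term is the same in both contrasts, the test of their difference is the authors' deposited table of wing against leg, turned here so that positive values are higher in leg. Of 12327 regions with an adjusted p it called 4.24%, 272 of them higher in leg (2.21%) and 251 higher in wing (2.04%). Of the 272, 222 were also higher in leg than in gland, and only 25 were called wing over gland. Their median log2 fold over gland was 1.49 in leg and 0.03 in wing, and the approximate median levels were 206 in leg, 75.6 in gland and 79.5 in wing. At these regions the wing median lay near the gland median and the leg median above both. Of the 251, 15 were higher in leg than in gland and 171 higher in wing than in gland, with medians of -0.08 in leg and 1.19 in wing, and levels of 63.8 in leg, 65.3 in gland and 153 in wing. Most leg-higher regions, 2712 of 2934, were not called against wing. A further caution concerns the 801 leg-higher regions that were not called wing over gland: 604 of them were not called between leg and wing either, so they are not shown to differ between the discs.

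**Figure D2:**
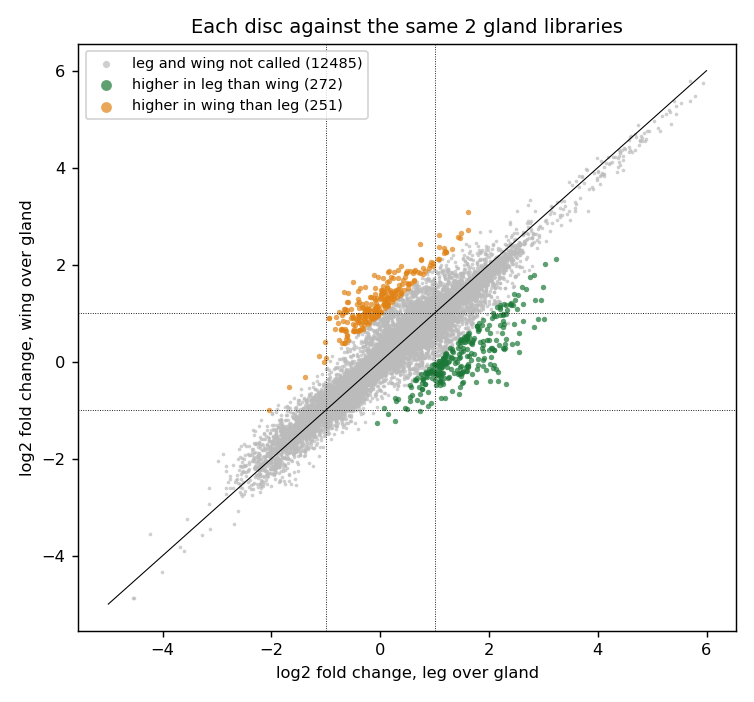
Log2 fold change over gland in leg (horizontal axis) and wing (vertical axis) for 13008 regions; green points were called higher in leg than wing (272), orange points higher in wing than leg (251), dotted lines mark a fold of 1 and the solid line equal folds. Green points cluster at wing values near 0 and orange points at leg values near 0; both axes use the same gland libraries.

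Among Hox genes the difference from wing lay at Ubx. All 8 had regions, and leg stood above gland at 43 of their 57 regions (75.4%, against 22.6% of all regions) in the authors' deposited table, with a median log2 fold of 1.68 against 0.17 for all regions. Wing over gland gave 29 of the same 57, with a median of 1.00, and 14 regions were higher in leg than in wing, 13 at Ubx and 1 at Antp, with 0 at Abd-B, abd-A and Scr; none was higher in wing. Antp, which specifies the second thoracic segment and represses head appendage fates in legs, had all 9 regions higher in leg than in gland, from 1.20 to 2.89. At its leading region, 3R 6998985 to 6999747, 0.14 kb from the gene end, approximate levels were 428 in leg, 57.7 in gland and 330 in wing, and leg exceeded gland by 2.89 on the log2 scale (SE 0.19, adjusted p = 1.00e-51, authors' deposited table). Leg and wing were not called apart there (0.38, SE 0.17, adjusted p = 0.18).

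From Ubx to Abd-B, 44 neighbouring regions in a row were higher in leg than in gland, the longest such run in the table, over 274.5 kb of 3R (16674397 to 16948921, dm6). Ubx specifies the third thoracic segment, abd-A and Abd-B specify abdominal segments, and the DNA between them holds their regulatory elements. Leg over gland folds in the run went from 1.08 to 3.67 with a median of 2.32, and wing over gland folds from -0.52 to 3.38 with a median of 1.37 in the authors' deposited tables. The wing difference was not spread evenly along it. Of 15 regions within Ubx, 10 were higher in leg than in wing, and of 16 between Ubx and abd-A, 9 were. From abd-A to Abd-B 0 of 13 were called between leg and wing, and all 13 were higher than gland in both discs. Median levels within Ubx were 146 in leg, 44.0 in gland and 74.0 in wing. Between Ubx and abd-A they were 161 in leg, 20.1 in gland and 64.6 in wing. From abd-A to Abd-B they were 162 in leg, 27.3 in gland and 153 in wing, so there the disc medians were close and both above gland. DNA copy number was not measured, so along this run fewer gland copies and less open chromatin in gland cannot be told apart.

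Within Ubx, at 3R 16685371 to 16686749, the approximate level was 756 in leg, 94.0 in gland and 173 in wing. Its log2 fold was 3.01 over gland (SE 0.16, adjusted p = 3.13e-72) and 2.13 over wing (SE 0.16, adjusted p = 2.5e-37) in the authors' deposited tables. At 3R 16676698 to 16677383 levels were 319 in leg, 64.3 in gland and 46.7 in wing, and wing and gland were not called apart (-0.46, SE 0.23, adjusted p = 0.071, authors' deposited table). Over all 20 Ubx regions the leg over gland median was 1.95 and the wing over gland median 0.35, with 17 higher in leg than gland. Between Ubx and abd-A, the 8 regions nearest CG31275 were all higher in leg than gland, from 2.20 to 3.03, and 6 of them also higher than wing. Around abd-A, the region at 3R 16811746 to 16812261 inside the gene had levels of 331 in leg, 27.3 in gland and 261 in wing and leg stood 3.60 above gland on the log2 scale in the authors' deposited table (SE 0.22, adjusted p = 8.44e-53). The 1 Hox region higher in gland lay inside Scr, the Hox gene of the labial segment from which the gland arises, at 3R 6847906 to 6848040, with levels of 10.1 in leg and 34.3 in gland (-1.76, SE 0.44, adjusted p = 6.86e-04, authors' deposited table).

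**Figure D3:**
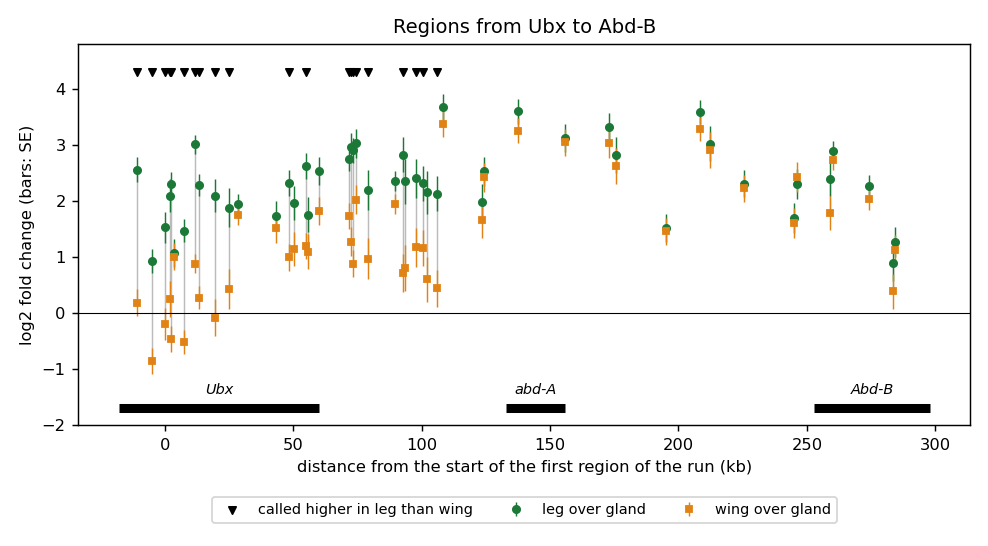
Log2 fold change over gland (vertical axis, bars SE) of the 44 regions of the Ubx to Abd-B run and of 2 neighbours on each side, against distance in kb from the start of the run; green circles are leg, orange squares wing, triangles mark regions called higher in leg than wing, and black bars are the genes. Leg and wing part over Ubx and the stretch after it and meet from abd-A onward.

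Among genes of leg pattern, 33 of 34 matched genes had regions and each had at least 1 region higher in leg than in gland. Of 253 regions, 160 were leg-higher (63.2%) and 6 gland-higher (2.37%) by the authors' deposited table, with a median log2 fold of 1.23. Among all regions the shares were 22.6% and 13.3%. Wing over gland called 119 of the same regions (47.0%, against 21.1% of all regions), with a median of 0.93. Leg exceeded wing at 44 regions of 15 genes (17.4%, against 2.21% of regions with an adjusted p). Wing exceeded leg at 8 regions of 5 genes (3.16%, against 2.04%). The list was thus open in both discs relative to gland, with a leg surplus at a minority of its genes.

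Of the 44 regions, Sp1 held 6, H15 and disco-r 5 each, btd 3 and disco 1, all genes of the ventral appendage program, while mid, which belongs to it too, held 0. Leg exceeded gland at 7 of 9 mid regions, as did wing, with medians of 1.45 in leg and 1.36 in wing. Sp1 and btd, neighbouring genes for Sp-family zinc finger factors needed for leg growth, lay in a run of 12 leg-higher regions whose median was 1.54 in leg and 0.18 in wing, and 8 of the 12 were called leg over wing. For Sp1, 6 of 9 regions were higher in leg than gland, and the leading one, at X 9728988 to 9729758, 0.28 kb from the gene end, had levels of 574 in leg, 89.9 in gland and 255 in wing. Its fold was 2.68 over gland (SE 0.19, adjusted p = 4.58e-43) and 1.17 over wing (SE 0.18, adjusted p = 5.2e-09) in the authors' deposited tables. For btd, all 6 regions were higher in leg than gland, from 1.08 to 1.59, with wing over gland folds from -0.60 to 1.12.

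H15, a T-box gene of ventral leg fate, was higher in leg than gland at 13 of 14 regions, with medians of 1.53 in leg and 0.68 in wing. The zinc finger gene disco-r had 14 of 15, with medians of 1.5 and 0.67, and its partner disco 2 of 3. Lim1, a LIM-homeodomain gene of the distal leg, had 10 of 11, with medians of 1.45 and 0.26, and 6 of its regions were higher in leg than in wing in the authors' deposited tables. TfAP-2, which acts in leg growth and joint formation, had 7 of 8, with medians of 1.65 and 0.22. Its leading difference, inside the gene at 3L 21594259 to 21595274, had levels of 621 in leg, 147 in gland and 135 in wing and leg stood 2.21 above wing on the log2 scale in the authors' deposited table (SE 0.21, adjusted p = 2.3e-23).

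At the proximal genes hth and tsh, 1 region each was called between the discs. Among all regions with an adjusted p the share was 4.24%, and so few regions cannot be told from it. For hth, which specifies the proximal domain of both appendages, 22 of 31 regions were higher in leg than gland, with medians of 1.63 in leg and 1.85 in wing, and 1 of 31 was called wing over leg. At tsh, a proximal gene of trunk and hinge, leg exceeded gland at 4 of 9 regions, against 9 of 9 for wing, with medians of 0.70 and 1.51, but the direct test called 1 of 9 wing over leg. At Dll, the distal selector, leg exceeded gland at 6 of 9 regions, with 2 called wing over leg and 0 leg over wing, and at dac, of the intermediate leg, at 1 of 4. At the Dll region 0.19 kb from the gene end, levels were 451 in leg, 117 in gland and 337 in wing, and the fold over gland was 1.95 (SE 0.18, adjusted p = 8.06e-25, authors' deposited table), while leg and wing were not called apart (0.42, SE 0.17, adjusted p = 0.15). Farther out, within 50 kb of Dll, a window chosen after its values were seen, 15 of 28 regions were higher in leg than gland and 5 in wing, with medians of 1.05 and 0.35; 8 were called leg over wing and 3 wing over leg. Of the 8, the region nearest Atf-2, at 2R 24868655 to 24869521, had levels of 440 in leg, 101 in gland and 90.9 in wing (leg over wing 2.27, SE 0.19, adjusted p = 2.2e-28, authors' deposited table). The distal leg genes bab1 and bab2 held regions of both directions. A bab2 region at 3L 1151242 to 1151655 had levels of 22.3 in leg, 99.7 in gland and 16.8 in wing (-2.16 over gland, SE 0.39, adjusted p = 3.88e-07, authors' deposited table).

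**Figure D4:**
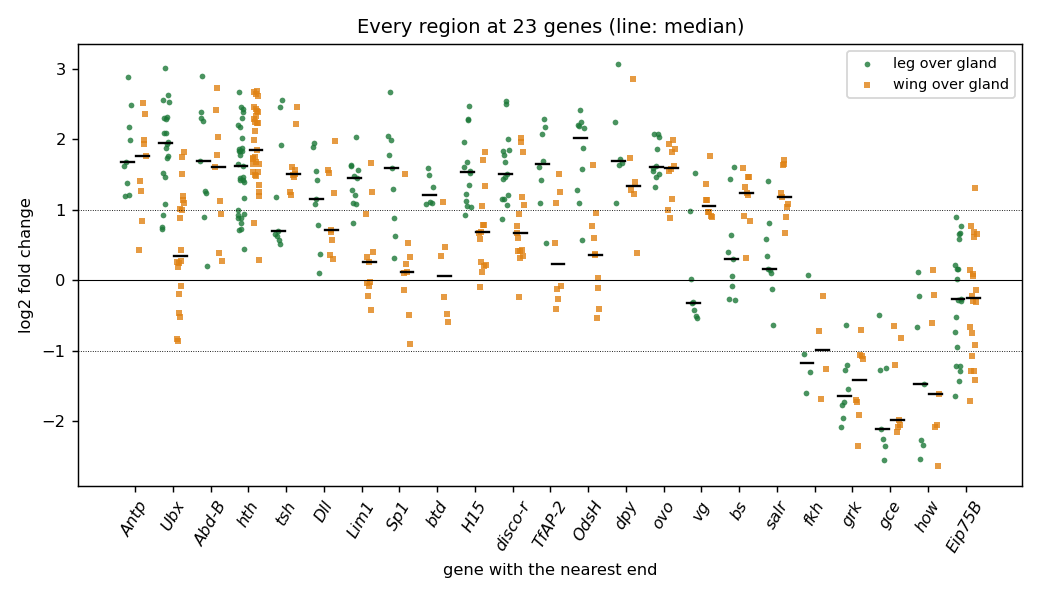
Log2 fold change over gland of every region assigned to 23 genes, in leg (green circles) and wing (orange squares); black lines are medians and dotted lines mark a fold of 1. Leg medians stand above wing medians at Ubx, Lim1, Sp1, btd, H15, disco-r, TfAP-2 and OdsH, below them at tsh, vg, bs and salr, and both are negative at fkh, grk, gce and how.

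Outside the pattern lists, genes with the most regions higher in leg than in both other tissues were CG31275 and OdsH with 6 each. In all, 153 of the 222 regions higher in leg than in both tissues lay at genes of no list. OdsH and unc-4 are neighbouring paired-like homeobox genes on the X. OdsH was higher in leg than gland at 9 of 10 regions, with medians of 2.03 in leg and 0.36 in wing, and unc-4 at 4 of 4, with medians of 1.80 and 0.22. At X 17815961 to 17816492 beside OdsH, levels were 255 in leg, 56.7 in gland and 43.0 in wing, so that leg over wing was 2.57 on the log2 scale in the authors' deposited table (SE 0.24, adjusted p = 2.9e-23). The forkhead genes fd96Ca and fd96Cb, by contrast, are in the leg pattern list, and fd96Cb had 3 of 4 regions called leg over wing. Between these 2 genes, at 3R 25090403 to 25091473, levels were 625 in leg, 154 in gland and 117 in wing (leg over wing 2.41, SE 0.18, adjusted p = 4.9e-37, authors' deposited table). Next to the T-box gene mid, all 6 regions of CG14020 were higher in leg than gland and 0 called wing over gland. Art9, next to the head and appendage homeobox gene ems, had 7 of 7 higher in leg than gland, and 3 were also higher than wing.

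Between the discs, wing genes gave the reverse. The 25 genes of wing pattern were higher in leg than gland at 67 of 184 regions (36.4%, against 22.6% of all regions). Gland was higher than leg at 8 (4.35%, against 13.3%). Wing was higher than gland at 99 (53.8%, against 21.1%), with medians of 0.62 in leg and 1.08 in wing. Wing exceeded leg at 31 regions of 15 genes (16.8%, against 2.04% of regions with an adjusted p). Leg exceeded wing at 5 regions of 3 genes (2.72%, against 2.21%). At the wing selector vg, leg exceeded gland at 1 of 8 regions, with medians of -0.32 in leg and 1.06 in wing. The intervein gene bs had 2 of 9, with medians of 0.30 and 1.24, and the central wing gene salr 1 of 9, with medians of 0.16 and 1.18. The direct test called wing over leg at 6 of 8 regions of vg, 6 of 9 of bs and 3 of 9 of salr, and leg over wing at none of them. Inside kn, a gene of wing vein formation, the region at 2R 14782549 to 14784041 had levels of 121 in leg, 182 in gland and 483 in wing, and the leg over gland log2 value of -0.58 was under the fold threshold (SE 0.19, adjusted p = 4.79e-03).

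A few regions set gland between or beside the discs. No region was higher in gland than leg and higher in leg than wing. At 6 regions gland and wing both exceeded leg, near toe, Cpr31A, Ttc30, CG2975, CG12362 and CG7546. The first, inside toe, a Pax gene, had levels of 33.1 in leg, 66.7 in gland and 88.6 in wing. At 4 regions leg exceeded wing while wing lay below gland, near UK114, Pburs, CG30334 and CG42353, and leg and gland were not called apart. At the Pburs region, beside the gene of a bursicon subunit, levels were 99.1 in leg, 89.9 in gland and 42.4 in wing, with a leg over gland fold of 0.14 (SE 0.26) and a leg over wing fold of 1.22 in the authors' deposited tables.

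Several gene groups had a larger share of leg-higher regions than the 22.6% of all regions. Signalling genes of the discs had 114 of 240 regions higher in leg (47.5%) and 11 higher in gland (4.58%, against 13.3% of all regions). The gland count was 7 with folds centred near gene ends. Wing against gland gave 95 and 11. Between the discs, 10 regions were called leg over wing (4.17%, against 2.21% of regions with an adjusted p). Wing over leg was called at 4 (1.67%, against 2.04%). The leading region lay near upd3, a JAK/STAT ligand, with levels of 1012 in leg, 142 in gland and 493 in wing (2.83 over gland, SE 0.27, adjusted p = 4.50e-25, authors' deposited table). Its fold over wing was 1.04 (SE 0.26, adjusted p = 1.6e-03). N, which encodes the Notch receptor, was leg-higher at 8 of 11 regions, and Ser, a Notch ligand, had a region inside the gene at 2.57 (SE 0.17). Notch target genes had 15 of 29 regions higher in leg (51.7%) and 3, all at hry, higher in gland (10.3%). Between leg and wing 0 of the 29 were called, against 4.24% of regions with an adjusted p, and so few regions cannot be told from that share.

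Genes of disc eversion and cuticle had 35 of 90 regions higher in leg (38.9%, against 22.6% of all regions) and 6 higher in gland (6.67%, against 13.3%; 3 with folds centred near gene ends). dpy, which encodes a giant extracellular matrix protein, had 6 of 6 higher in leg, and the region 0.07 kb from its end had levels of 661 in leg, 78.8 in gland and 573 in wing (3.07, SE 0.20, adjusted p = 8.49e-53, authors' deposited table). The 6 gland-higher regions lay at 4 genes, among them zip and sqh, the heavy and regulatory light chains of non-muscle myosin II, though sqh at -0.74 was not called with folds centred near gene ends. At zip, levels were 38.5 in leg, 178 in gland and 51.5 in wing (-2.21, SE 0.31, adjusted p = 3.01e-11, authors' deposited table).

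Tracheal genes, which also mark cells that can adhere to a disc, had 39 of 65 regions higher in leg (60%, against 22.6% of all regions) and 1 higher in gland, against 42 and 1 for wing. vvl, a POU-domain gene of trachea and imaginal discs, had 12 of 18 higher in leg, knrl, a nuclear receptor gene, 9 of 9, and btl, the tracheal FGF receptor gene, no region. Myoblast genes had 19 of 42 higher in leg (45.2%) and 8 higher in gland (19.0%, against 13.3%), 4 of the latter at how, an RNA-binding protein gene expressed in muscle and elsewhere. Their part in the disc folds was not tested.

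Genes of the ecdysone response did not lean as a group. Of 200 regions, 49 were leg-higher (24.5%) and 23 gland-higher (11.5%) by the authors' deposited table, shares near the 22.6% and 13.3% of all regions, and the median was 0.29. The counts were 39 and 31 once the overall median was set to 0, and 73 and 11 once that of gene-end regions was. Single genes leaned either way, and some both ways. Blimp-1, an ecdysone-induced repressor, had 8 of 8 regions higher in leg, and EcR, the ecdysone receptor gene, 6 of 8. Eip75B, a nuclear receptor gene induced early by ecdysone, had 0 of 20 higher in leg and 5 higher in gland. Eip74EF, an ETS gene, had 6 higher in leg and 5 higher in gland among 28 regions, and br, the Broad zinc finger gene, 5 and 3 among 28. At br a region 0.48 kb from a gene end had levels of 955 in leg, 172 in gland and 856 in wing (2.48, SE 0.16), and a region inside the gene, at X 1597446 to 1597782, had 17.2 in leg, 106 in gland and 19.9 in wing (-2.63, SE 0.35, adjusted p = 1.12e-11, authors' deposited table). Between leg and wing, 1 ecdysone region was called higher in leg and 2 higher in wing.

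Gland regulators had calls of both directions, with 12 of 56 regions gland-higher and 12 leg-higher (21.4% each) by the authors' deposited table. Among all regions the shares were 13.3% gland-higher and 22.6% leg-higher. With the overall median set to 0 and with folds centred near gene ends, the leg count was 9 and 26. The shares of all regions were then 18.1% and 34.8%. The gland count was 12 and 7, with 17.3% and 7.74% of all regions. fkh, the FoxA factor of gland identity, had 3 of 4 regions higher in gland, from -1.60 to 0.08. At 3R 28567992 to 28568365, 12.8 kb from fkh, levels were 27.8 in leg, 84.1 in gland and 26.3 in wing (-1.60, SE 0.34, adjusted p = 1.76e-05, authors' deposited table). CrebA, a bZIP activator of secretory genes, had 3 regions higher in gland and 1 higher in leg among 8. sens, a zinc finger gene of sensory precursors that is also used in the embryonic gland, had 2 higher in gland among 4. trh, a bHLH-PAS gene of trachea and gland ducts, had 5 of 12 higher in leg and 0 higher in gland.

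Glue and secretion genes leaned to gland. Of 33 regions at 16 of 38 matched genes, 11 at 8 genes were higher in gland (33.3%, against 13.3% of all regions) and 1 higher in leg, with a median of -0.53 in the authors' deposited table. Wing against gland gave 10 and 0. Near Sgs4, a glue gene that sits within dnc, the region at X 3261729 to 3262093 had levels of 14.8 in leg, 100 in gland and 18.7 in wing (-2.76, SE 0.39, adjusted p = 3.84e-10, authors' deposited table). The leg-higher region of the list also lay nearest Sgs4 within dnc, 5.03 kb away. Pgant4 and Pgant5, which start O-glycosylation of mucins, had gland-higher regions at -2.39 (SE 0.34) and -1.80 (SE 0.19). In both contrasts most glue genes, among them Sgs5, Sgs7 and Sgs8, had no region.

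Outside the secretory genes, gland-higher regions lay in runs at gce, which encodes a juvenile hormone receptor, with 6 of 7 regions higher in gland and a leg over gland median of -2.11, and at grk, the gene of a TGF-alpha-like ligand, with 7 of 8 and a median of -1.64. Cell cycle genes had 11 of 41 regions higher in leg (26.8%) and 4 higher in gland (9.76%), shares near the 22.6% and 13.3% of all regions. With folds centred near gene ends these counts were 17 and 1, and the shares of all regions 34.8% and 7.74%. stg, the Cdc25 phosphatase gene that drives mitotic entry, led the leg side with levels of 910 in leg, 212 in gland and 789 in wing (2.1, SE 0.14, adjusted p = 8.06e-51, authors' deposited table). fzr, which promotes the switch to endoreplication, had 2 of 2 regions higher in gland, the leading one at -1.08 (SE 0.30), or -0.71 and not called with folds centred near gene ends. E2f1, a driver of S phase, held 6 leg-higher and 1 gland-higher region among 18. In the Hippo growth pathway, ex, ft, wts and ds led the leg side at 2.13 to 2.31 and sav, Myc, kibra and hpo the gland side at -2.76 to -1.09, hpo losing its call (-0.73) with folds centred near gene ends; 24 of 78 regions of the growth list were higher in leg (30.8%) and 8 higher in gland (10.3%), or 38 and 5 with that centring. Sensory organ genes had 6 leg-higher (17.6%) and 5 gland-higher (14.7%) of 34 regions, again near the shares of all regions, or 14 and 5 with that centring. Housekeeping genes had 1 leg-higher (3.70%, against 22.6% of all regions) and 2 gland-higher (7.41%, against 13.3%) of 27, with a median of -0.30. The counts were 0 and 4 with the overall median set to 0, and 3 and 1 with that of gene-end regions. The wider haemocyte list had 6 leg-higher (46.2%) and 1 gland-higher (7.69%) of 13 regions. The wider fat body list had 4 (33.3%) and 1 (8.33%) of 12, against the same 22.6% and 13.3% of all regions.

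**Figure D5:**
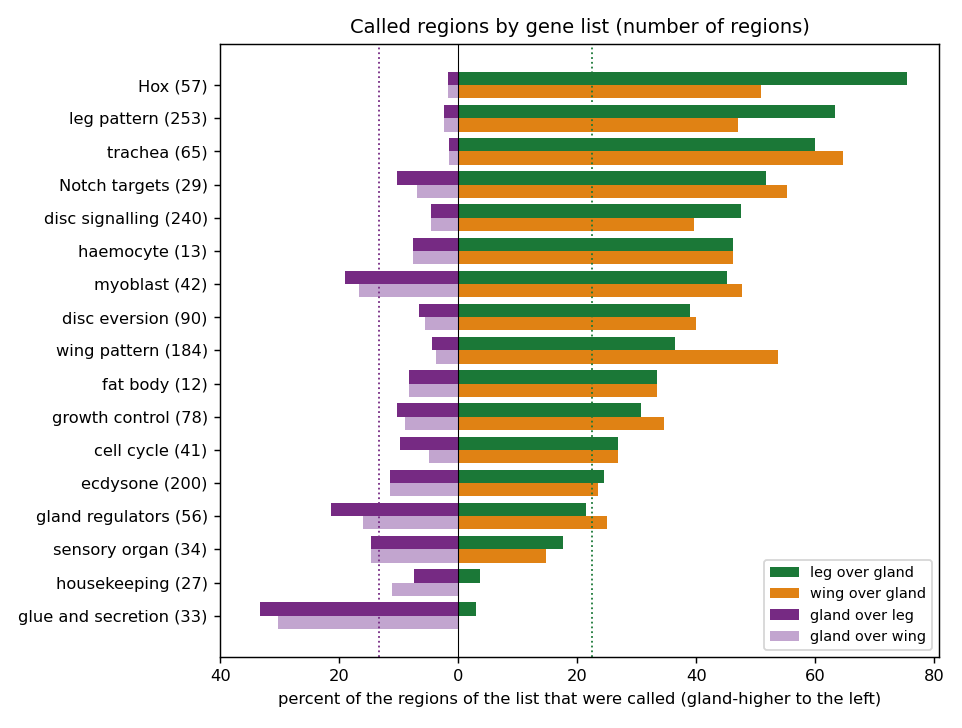
Percent of the regions of each of 17 gene lists that were called, disc-higher to the right and gland-higher to the left, for leg against gland (dark bars) and wing against gland (light bars); dotted lines are the shares of all regions for leg against gland, 22.6% and 13.3%, and numbers of regions stand in parentheses. Leg bars exceed wing bars most for Hox and leg pattern genes, the reverse holds for wing pattern genes, and glue and secretion genes lead the gland side.

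Called regions stood in long rows on the leg side. Runs of at least 4 neighbouring regions called the same way numbered 146 for leg, with 976 regions, and 37 for gland, with 179. A run of 40 regions on the X near ATbp had medians of 4.47 in leg and 4.32 in wing. The Y and 7 bins of 1 Mb elsewhere with a median log2 fold of at least 2, among them the bin of this run, held 87 regions, 81 of them higher in leg, and 77 of the 122 regions with a leg over gland fold of 3 or more. The labels call all libraries female, yet all 14 Y regions were higher in leg, with a median of 4.37, against 4.25 in wing. On the Y the peak lists held 39 leg, 34 wing and 0 gland peaks. These regions may thus have entered the set through disc peaks, so their shared direction is a description. Outside these bins, 45 regions reached 3, the largest near CG40228 (5.79), CG14621 (5.43) and CG41562 (4.77), followed by one inside CadN. The first belongs to a run of 6 leg-higher regions, 3L 26881496 to 27082091, that crosses the edge of such a bin. Those near CG14621 and CG41562 lie in the X bin beside that of the ATbp run. Their gland levels were low, at 7.06, 7.74 and 13.5 in the order named. The fold over SE differed from the statistic by 42.7%, 19.0% and 6.34%. Inside CadN, the N-cadherin gene, levels were 290 in leg, 12.2 in gland and 261 in wing (4.57, SE 0.26, adjusted p = 4.54e-59, authors' deposited table), and inside Ten-a, a teneurin gene, 756, 42.5 and 722. All 7 regions at CadN were higher in leg than gland, from 1.59 to 4.57, and higher in wing, and 0 were called between the discs. Gland copy number was not measured at any of these stretches or genes, so it cannot be told apart from open chromatin there either.

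Among genes in no list, the largest gland-higher folds at regions with a mean count at or above the median lay near CG43149 (-4.54, SE 0.41), CG1636 (-3.69, SE 0.18), gus (-2.84, SE 0.35) and Cyp28d2 (-2.71, SE 0.33) in the authors' deposited table. At CG1636, levels were 90.6 in leg, 1165 in gland and 82.9 in wing. At CG43149 and CG1636 wing discs with EcR-RNAi also exceeded WT wing, with WT over EcR-RNAi log2 folds of -5.98 and -4.45 in the authors' deposited table. Stock and tissue cannot be told apart at such regions. The longest gland run, 12 regions near TpnC41C and gus at 2R 4658129 to 5126798, had a median of -2.49 in leg against gland and -2.48 in wing against gland.

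Peak lists gave the same contrast without a test. The authors called peaks on merged libraries, and each peak's fold enrichment and -log10 q are the authors' own. Leg had 26754 peaks with a median width of 230 bp and gland 16840 of 152 bp. The gland list carries a fragment size tag that the leg and wing lists lack, and library depth is unknown. Their part in the peak numbers, widths and overlaps was not tested. Gland peaks overlapped 26.3% of leg peaks, and leg peaks overlapped 45.4% of gland peaks, with at least 1 bp shared. Overlap fell with rank within each list, when each was cut into 10 equal parts by -log10 q, from 50.4% in the best part of leg peaks to 6.88% in the last, and from 81.7% to 20.7% in gland peaks. Of leg peaks, 58.4% were overlapped by a wing and no gland peak, 15.3% by neither and 2.92% by a gland and no wing peak. Of gland peaks, 50.2% were overlapped by no disc peak, 5.05% by leg and not wing peaks and 4.34% by wing and not leg peaks. Overlapped peaks lay near gene ends more often: 60.4% of overlapped leg peaks had their summit within 500 bp of a gene end, against 17.9% of the others. For gland peaks the shares were 59.2% and 41.4%. Chromosome 4 held 139 gland peaks and 94 leg peaks although the gland list was shorter. The tested regions did not lean that way. Of 39 on this chromosome, 7 were higher in leg (17.9%, against 22.6% of all regions) and 2 in gland (5.13%, against 13.3%), with a median log2 fold of 0.25.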

How the data were processed

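Per the labels, libraries were made with the Takara ThruPLEX kit. Per the submitters' processing notes, MACS2 2.1.2, Bowtie2 2.3.4.1, DESeq2 (no version) and R 3.5.2 were used on dm6, with SAMtools 1.9, bedtools 2.26 and Picard 2.2.4; the sources used here do not give settings. The authors deposited comparison tables of 13008 shared regions with a mean normalized count (signal, scaled by the authors), log2 fold change, SE, statistic, p-value and adjusted p-value, and merged peak lists with a fold enrichment ratio, a score and −log10 q-values. Depth per library is unknown, so precision is that of the SEs.

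Python 3.11.15, pandas 2.3.3 and SciPy 1.17.1 were used. A call needed an adjusted p below 0.05 and a log2 fold of 1 or more in either direction; 681 regions without an adjusted p in wing against leg were never called. The fold over its SE differed from the statistic by over 5% at 90 leg-higher and 246 gland-higher regions, so the folds look moderated. Approximate levels assume that the 4 groups of 2 libraries average to the mean normalized count; the 3 folds closed to within 0.01 at all but 6 regions. The region was assigned to the nearest end of 13946 genes of a RefSeq table with no strand, so gene ends replaced the planned start. Exons and sequence were not used here. Of 366 symbols in 17 lists, 358 matched. Named genes were, per list and direction, up to 4 by fold plus genes with at least 3 called regions; outside lists up to 10 per direction with a count at or above the median; and for the difference from wing up to 12 by fold and 12 by number of regions. Members and lists were chosen with earlier results of these data known. Centred folds had p from fold over SE with Benjamini-Hochberg adjustment, tested on simulated data. Alternatives covered thresholds, count filter, centring, chromosomes, peak overlap and gene assignment.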

Additional observations from a re-analysis of the deposited data

Results flagged for a closer look

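Leg over gland and wing over gland differed, by the wing against leg test of the authors' deposited table, at 272 regions higher in leg and 251 higher in wing. The largest leg-side differences lay at Ubx (2.77), beside OdsH (2.57) and between fd96Ca and fd96Cb (2.41) on the log2 scale. The largest wing-side differences lay near CG14820 (-2.12), near snky (-2.10) and inside kn (-1.99). At 6 regions gland and wing both exceeded leg, and at 4 regions gland and leg both lay above wing, with gland and wing called apart and leg and gland not. Groups of 2 libraries are too small for a check of single samples.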

How the results depend on the processing

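No paired analysis was possible because the tables hold no value per library; leaving out a replicate was not run for the same reason. The 5 region counts and the share of leg among calls stayed near their values (2934, 1725, 62.97%, 272, 251, in the order leg over gland, gland over leg, leg share, leg over wing, wing over leg) at an adjusted p under 0.01 and without the Y and high bins. Without a fold threshold they were 5263, 3635, 59.1%, 647 and 622. At a fold of at least 1.5 the counts were 1460, 827, 90 and 41. With a mean count at or above the median they were 121 gland over leg, 94.6% leg share, 120 and 95. Centred on the median of all regions (0.17) the leg share was 51.1%; centred on regions near a gene end (-0.37) it was 81.8%, with 4530 and 1007 regions. Without regions whose fold over SE was off the statistic, an alternative added after seeing the data, it was 65.8%. The 44 regions from Ubx to Abd-B numbered 43 and 44 under the centrings and 15 above the median count. Gland peaks overlapped by leg peaks were 17.3% at reciprocal overlap, 35.2% by summit, 54.7% at a −log10 q of at least 10 and 40.0% for equal numbers; leg peaks overlapped by gland peaks were 10.9%, 17.6%, 19.9% and 35.99%. Named regions were compared under the centrings only, and 11 of 404 comparisons lost the call. A change of sign was not possible there, because called folds reach 1 and the shifts were smaller. List counts were compared under other gene assignments and the centrings, and 23 of 136 moved by over 1.5 times.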

Other observations

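Some genes held regions of both directions. Of 5828 genes nearest to a region, 1359 had a leg-higher region, 1290 a gland-higher region and 168 both in the authors' deposited table, which is 2.88% of all these genes and 6.83% of the 2461 with at least 2 regions. Those with most regions were the ecdysone-induced Eip74EF and br, the DNA demethylase family gene Tet (10 leg-higher, 1 gland-higher of 26), hng3 (5 and 6 of 25) and tara (5 and 3 of 25). The sex-determination gene fru had 6 and 1 of 19, and the insulin receptor gene InR 4 and 2 of 17. Of the 168 genes, 25 were in a list.

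The region table marks which tissue's peaks a region came from. For leg and wing these marks equalled overlap with the 7500 peaks of highest −log10 q of each deposited list, with 0 of 13008 regions differing. For gland 2250 regions differed from such a rule, and 678 gland-marked regions overlapped no peak of the deposited gland list. Of 4451 regions marked in leg and not in gland, 2537 were higher in leg and 0 higher in gland. Of 4026 marked in gland and not in leg, 1700 were higher in gland and 0 higher in leg. Marks and folds come from the same libraries, so this is a description.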
